A study of Mus musculus with 8 samples.

Results

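The EGFR and MAPK feedback genes are *Egfr*, *Errfi1*, *Spry1*, *Spry2*, *Spry4*, *Spred1*, *Spred2*, *Dusp6*, *Etv4* and *Etv5*. They were taken by symbol from the expression table of the prefrontal cortex (PFC), and all 10 were found among its 15039 genes. RNA sequencing covered 4 Rnf146 and 4 eGFP libraries from wild-type male C57BL/6NCrljOri mice, injected in the PFC at 6 weeks of age and dissected 4 weeks later. The Rnf146 mice received an AAV carrying mouse Rnf146 and eGFP behind the human synapsin promoter, which drives expression in neurons, and the eGFP mice received the same vector type with eGFP alone. The RNA came from the whole dissected tissue, so glia and neurons without vector are in every library. According to the study, the sequenced Rnf146 mice had been seen to overexpress the gene and to show social deficits. Rnf146 is a ubiquitin ligase that acts on PARylated proteins, and the sequencing asked which genes change in the PFC when it is raised.

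EGFR is a receptor tyrosine kinase that activates Ras, Raf, MEK and ERK (the MAPK cascade). ERK then induces genes whose products act back on the cascade: Errfi1 binds and inhibits the receptor, Sprouty and Spred proteins restrain Ras and Raf, and Dusp6 dephosphorylates ERK in the cytoplasm. Etv4 and Etv5 are ETS transcription factors of the PEA3 group, which are induced by FGF and ERK signaling. The RNA levels of such genes are widely read as a record of recent ERK activity. In brain, EGFR is known from astrocytes and glial progenitors, whereas ERK also responds to synaptic activity in neurons.

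The values are on a log2 scale and had been centred in each pair of same-numbered libraries, so that a gene's Rnf146 and eGFP values mirror each other around its mean. The information on a gene is therefore its 4 pair differences, Rnf146 minus eGFP. Genes with an adjusted p up to 0.1 were called, from limma fitted over all genes with pairs as blocks. *Rnf146* itself was higher in the Rnf146 library of each pair, by 2.64 ± 0.13 (SD, n = 4 pairs; adjusted p = 3.2e-07, limma). Among all genes, 188 were called, which is 1.25% of them, 0.818% being higher and 0.432% lower. This count fell to 42 without pair 2 and to 14 without pair 4, and it rose to 421 without pair 1. Whether replicate numbers stand for a shared cage, day or batch is not given in the sources used here.

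None of the 10 feedback genes was called (0 of 10, limma with the replicate block). A total of 7 had a mean difference below 0, as did 49.5% of all genes, and 3 above it, and the mean differences ran from -0.30 for *Dusp6* to 0.05 for *Spry1*. Their median was -0.08, beside 0.00086 over all genes in the table. By mean value the members ran from percentile 19 of all genes for *Spry1* to 94 for *Spred1*, and changes of weakly expressed genes may be compressed on this scale. An unadjusted p below 0.05 was found for 3 of the 10, *Dusp6*, *Spred2* and *Etv5*, all lower, whereas 12.4% of all genes had such a p in either direction and 5.98% with a lower value. *Dusp6* and *Spred2* were lower in all 4 pairs, which 10.2% of all genes were, and no member was higher in all 4 pairs, beside 10.4% of all genes; 20.6% of all genes kept one direction. In the fit without the block, which counts the 8 centred values as independent, 21.5% of all genes were called, and *Dusp6*, *Spred2* and *Etv5* were among them. The genes were picked with earlier results of these data known, so these counts describe the members and are no test of the group.

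**Figure D1:**
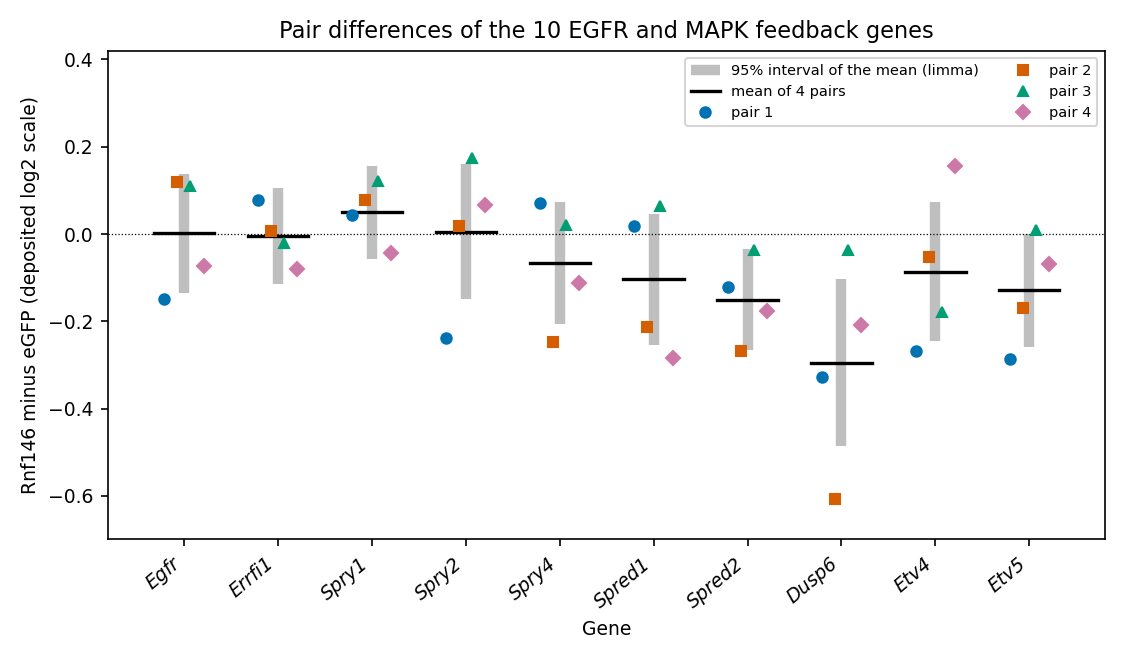
Differences between the Rnf146 and the eGFP library of each pair (y axis, deposited log2 scale) for the 10 feedback genes (x axis). Symbols are the 4 pairs, black lines their means and grey bars the 95% interval of the mean from limma. *Dusp6* and *Spred2* have all 4 symbols below 0, while the symbols of *Egfr* and *Errfi1* lie on both sides of 0.

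*Egfr*, the receptor, lies on chromosome 11 of GRCm39 (16702198 to 16868158, plus strand). Its values were 9.83, 9.70, 9.70 and 9.80 in the eGFP libraries 1 to 4 and 9.69, 9.82, 9.81 and 9.72 in the Rnf146 libraries. The groups overlapped, with Rnf146 lower in pairs 1 and 4 and higher in pairs 2 and 3. The mean difference was 0.0018 ± 0.13 (SD, n = 4 pairs), with a 95% interval from -0.13 to 0.14 and an adjusted p of 0.995 from limma. A change of *Egfr* beyond these bounds on the deposited scale is outside the interval, and a smaller one could not be resolved with 4 pairs.

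*Errfi1* encodes the inhibitor, also called Mig6, that binds the EGFR kinase domain and is induced by ERK. It had the smallest spread of the 10 genes, with pair differences of 0.08, 0.0063, -0.02 and -0.08. Its mean difference of -0.0042 ± 0.07 (SD, n = 4 pairs) had a 95% interval from -0.11 to 0.11 and an adjusted p of 0.984 from limma. Neither the receptor nor its inducible inhibitor thus differed by more than the spread between pairs.

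The 3 Sprouty genes encode membrane-associated inhibitors of receptor tyrosine kinase signaling. *Spry1* was higher in 3 of 4 pairs, with differences of 0.04, 0.08, 0.12 and -0.04 that averaged 0.05 ± 0.07 (SD, n = 4 pairs). *Spry2* had the wider spread, from -0.24 in pair 1 to 0.17 in pair 3, around a mean of 0.0057 ± 0.17 (SD, n = 4 pairs). *Spry4* was higher in pairs 1 and 3, by 0.07 and 0.02, and lower in pairs 2 and 4, with differences of -0.25 and -0.11. The mean of *Spry4* was -0.07 ± 0.14 (SD, n = 4 pairs). In all 3 genes the groups overlapped and the mean difference was smaller than the SD of the pairs, and the adjusted p-values from limma ran from 0.718 for *Spry4* to 0.985 for *Spry2*.

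The Spred proteins carry the Sprouty-related domain and, unlike the Sproutys, bring the Ras GTPase-activating protein neurofibromin to the membrane. *Spred2* lies on chromosome 11 of GRCm39 (19874355 to 19974442, plus strand). Its values were 11.65, 11.73, 11.61 and 11.68 in the eGFP libraries and 11.53, 11.46, 11.57 and 11.50 in the Rnf146 libraries. Every eGFP value lay above every Rnf146 value, which under the centring is the same as being lower in all 4 pairs, as 10.2% of all genes were. The pair differences were -0.12, -0.27, -0.04 and -0.18, on average -0.15 ± 0.10 (SD, n = 4 pairs). The 95% interval of this mean was -0.27 to -0.04, and limma gave an adjusted p of 0.276 with and 0.022 without the block. *Spred1* had differences of 0.02, -0.21, 0.06 and -0.28, so its groups overlapped. Its mean was -0.10 ± 0.17 (SD, n = 4 pairs), with a 95% interval from -0.25 to 0.05 and an adjusted p of 0.569 from limma. For both genes the lowest differences were in pairs 2 and 4.

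*Dusp6* encodes the ERK-specific phosphatase MKP3 and lies on chromosome 10 of GRCm39 (99086564 to 99103361, plus strand). Its values were 10.56, 10.70, 10.41 and 10.50 in the eGFP libraries and 10.23, 10.09, 10.38 and 10.29 in the Rnf146 libraries. The groups did not overlap, as in the 10.2% of all genes that were lower in all 4 pairs, and the eGFP and Rnf146 values of pair 3 were the 2 nearest to each other. The pair differences of -0.33, -0.61, -0.04 and -0.21 gave a mean of -0.30 ± 0.24 (SD, n = 4 pairs), or 0.815-fold on the deposited scale. Of the 15039 genes, 76 had a lower mean difference. The 95% interval was -0.49 to -0.10, the unadjusted p was 0.0072, and limma gave an adjusted p of 0.202 with and 0.031 without the block. Without pair 2 the mean difference of *Dusp6* was -0.19, a change of more than 1.5 times, with an adjusted p of 0.519.

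**Figure D2:**
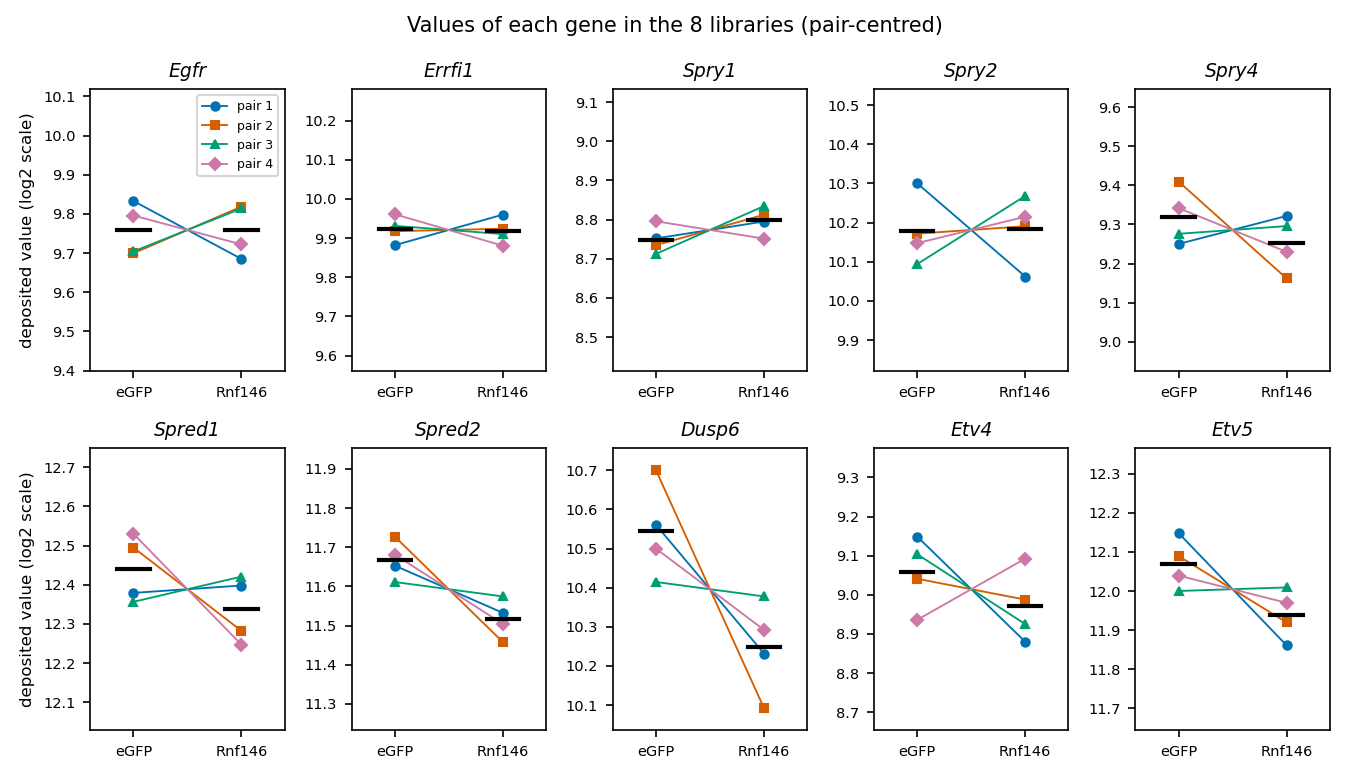
Deposited values (y axis, log2 scale, the same span of values in each panel) of the 10 feedback genes in the eGFP and the Rnf146 libraries (x axis). Lines join the libraries of a pair, which cross at the gene's mean because the values were centred within pairs, and black bars are group means. The groups are apart in *Dusp6* and *Spred2*, 2 of 10 genes, beside 20.6% of all genes in which they are apart in either direction, and overlap in the other 8.

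Among the ETS factors, *Etv5* (chromosome 16 of GRCm39, 22200052 to 22259662, minus strand) had values of 12.15, 12.09, 12.0001 and 12.04 in the eGFP libraries and 11.86, 11.92, 12.01 and 11.97 in the Rnf146 libraries. The groups overlapped through pair 3, in which Rnf146 was higher by 0.0090. The differences of the other pairs were -0.29, -0.17 and -0.07. The mean of all 4 pairs, -0.13 ± 0.13 (SD, n = 4 pairs), was about the size of the spread between them. The 95% interval ended just below 0, at -0.00055, and limma gave an adjusted p of 0.40 with and 0.070 without the block. *Etv4* was lower in pairs 1 to 3, with differences of -0.27, -0.05 and -0.18, and higher by 0.16 in pair 4. Its mean was -0.09 ± 0.18 (SD, n = 4 pairs), below the spread in size, and limma gave an adjusted p of 0.675.

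The pairs differed in how many of the 10 genes were lower: 6 in pair 1, 6 in pair 2, 4 in pair 3 and 8 in pair 4. The median difference of the members was -0.13, -0.11, 0.01 and -0.08 in pairs 1 to 4, beside medians over all genes between -0.0020 and 0.0037. Pair 3 was thus the pair in which the feedback genes differed least on balance. The SD of the pair differences ran from 0.07 for *Errfi1* to 0.24 for *Dusp6*, with a median of 0.14 over the members and 0.10 over all genes. None of the members shares its locus with another gene of the table in the GENCODE vM39 annotation.

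Other genes of the pathway were read from 4 lists, of which 52 of 61 genes were in the table. None of the 52 was called (limma with the block), and 10 had an unadjusted p below 0.05, 8 of them higher and 2 lower, beside 12.4% of all genes. Without the block 19 of the 52 were called, beside 21.5% of all genes. The median of their mean differences was 0.05. Their median differed in sign from that of the feedback genes, and the difference between these lists was not tested.

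Of the ErbB and FGF receptors, means lay above 0 for 5 of the 6 in the table, 3 of which (*Erbb2*, *Erbb4* and *Fgfr1*) were higher in every pair, as 10.4% of all genes were. The highest was *Erbb3*, a neuregulin receptor also known from oligodendrocytes, at 0.19 ± 0.28 (SD, n = 4 pairs). Pair 1 gave -0.19 and the other pairs gave 0.21 to 0.48. The lowest was *Fgfr3*, a receptor known from astrocytes, at -0.15 ± 0.17 (SD, n = 4 pairs). *Fgfr4* was not in the table. Neither was called, and the adjusted p-values of the 6 receptors ran from 0.270 to 0.557 (limma).

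Of the 11 ErbB ligands, 6 were in the table and *Areg*, *Ereg*, *Btc*, *Epgn* and *Nrg4* were not. *Tgfa*, an EGFR ligand, had the highest mean difference of the 52 pathway genes, 0.27 ± 0.23 (SD, n = 4 pairs), with -0.03 in pair 1 and 0.53, 0.34 and 0.21 in the others and an adjusted p of 0.239 from limma. *Nrg3*, a neuregulin, was the lowest at -0.11 ± 0.09 (SD, n = 4 pairs). *Hbegf*, another EGFR ligand, had a mean of 0.0016, with pair differences of -0.03, -0.06, 0.01 and 0.08.

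All 27 genes of the adaptors, Ras proteins and the ERK cascade were in the table. Their median difference was 0.05, with 18 above 0 and 8 higher in all 4 pairs against 2 lower in all 4. Over all genes these shares were 10.4% and 10.2%. *Gab1*, a docking protein that recruits the phosphatase Shp2 and PI3-kinase to EGFR, was the highest at 0.26 ± 0.17 (SD, n = 4 pairs; adjusted p = 0.160, limma). It was higher in all 4 pairs, by 0.01, 0.38, 0.36 and 0.29. The lowest was *Shc2*, an adaptor, at -0.11 ± 0.07 (SD, n = 4 pairs). *Gab1* was called without pair 1, as were *Tgfa* and *Erbb3*.

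The closest relatives of the members were 16 further feedback and ERK-induced genes, 13 of them in the table (*Spry3*, *Dusp9* and *Epha2* were not). Their median difference was -0.0083, and 7 lay below 0 and 6 above. *Dusp7*, the ERK phosphatase nearest to Dusp6 in kind, was the lowest at -0.15 ± 0.22 (SD, n = 4 pairs), with differences of -0.33, -0.34, 0.07 and -0.01. Its adjusted p was 0.460 from limma. The highest was *Lrig3*, of a family of transmembrane proteins that regulate ErbB receptors, at 0.16 ± 0.03 (SD, n = 4 pairs), higher in all 4 pairs with an adjusted p of 0.153. *Spred3*, *Dusp4*, *Dusp5* and *Etv1*, which belong to the same families as members, had means of -0.0083, 0.01, -0.07 and 0.06.

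**Figure D3:**
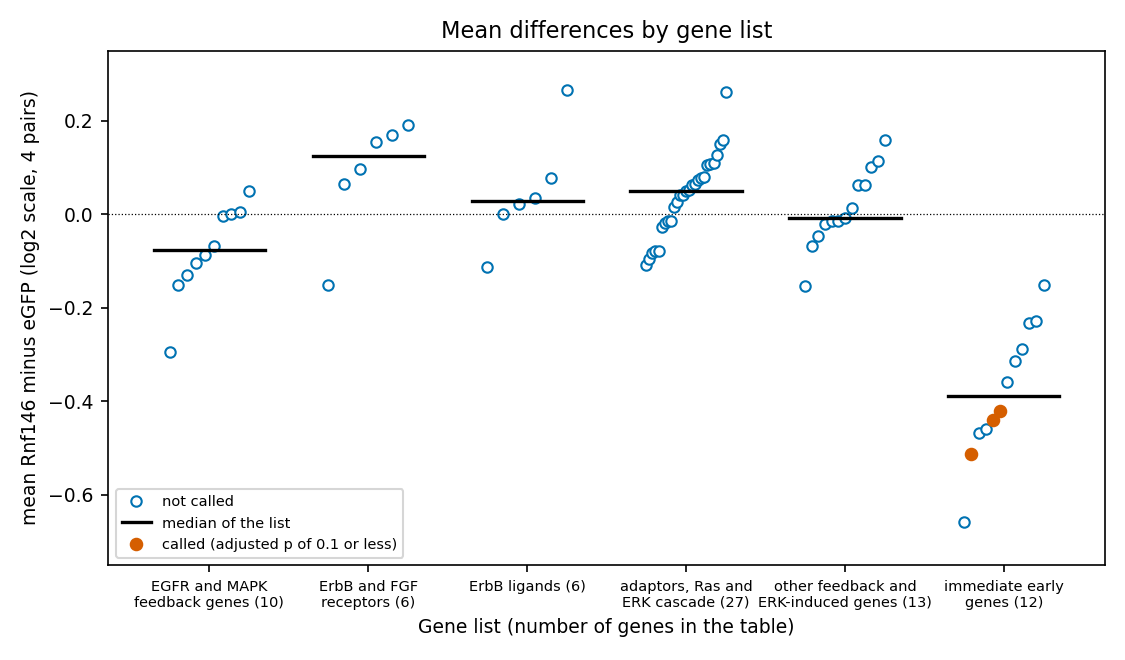
Mean difference of 4 pairs, Rnf146 minus eGFP (y axis, log2 scale), for each gene of 6 lists (x axis); filled points passed the adjusted p of 0.1, open points did not, and black lines are list medians. The feedback genes have a median of -0.08, and the called genes are 3 of the 12 immediate early genes.

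Immediate early genes, which neurons induce within minutes of synaptic activity, in part through ERK, were also read. All 12 had a mean difference below 0, 10 were lower in all 4 pairs, beside 10.2% of all genes, and the median was -0.39. *Fos*, *Fosb* and *Junb*, which encode AP-1 subunits, were called lower (3 of 12, beside the 0.432% of all genes), with means of -0.51, -0.42 and -0.44 and adjusted p-values of 0.051, 0.029 and 0.056 from limma with the block. Without pair 2, and likewise without pair 4, 0 of the 12 were called, and without pair 1 it was 5. Without pair 3 the count was again 3, but *Junb* was no longer among the calls. The lowest mean was that of *Arc*, at -0.66 ± 0.55 (SD, n = 4 pairs), and the highest that of *Ier2*, at -0.15 ± 0.17 (SD, n = 4 pairs), neither of them called. The list averaged -0.30, -0.70, -0.22 and -0.28 in pairs 1 to 4, beside the -0.33, -0.61, -0.04 and -0.21 of *Dusp6*. Both were lowest in pair 2, the pair with the widest spread over all genes (SD 0.170, beside 0.140 to 0.166 in the other pairs). *Dusp1*, a phosphatase of the same family as Dusp6 that is itself an immediate early gene, had a mean of -0.23 ± 0.11 (SD, n = 4 pairs) and was not called (adjusted p = 0.136, limma).

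Markers of cells that the dissected tissue could hold differed between the groups, and their part in the values of the feedback genes was not tested. In bulk tissue, fewer cells of a type and less RNA per cell cannot be told apart. The 8 markers of cortical excitatory neurons averaged -0.30, -0.39, -0.03 and -0.18 in pairs 1 to 4, with list levels of 12.06 to 12.23 in the eGFP and 11.85 to 12.02 in the Rnf146 libraries. Like *Dusp6*, *Spred2* and *Etv5*, the list mean was nearest to 0 in pair 3, whereas *Emx1* was nearest to 0 in pair 4 and *Cux2* in pair 1. *Slc17a7* and *Neurod2* were called lower. The 8 inhibitory neuron markers went both ways: *Gad1*, *Gad2*, *Slc32a1* and *Dlx1* were called higher, while the means of *Pvalb*, *Sst*, *Vip* and *Lhx6* lay between -0.23 and -0.03, uncalled, with *Vip* and *Lhx6* below 0 in all 4 pairs. The list mean was 0.19. All 6 of the 10 septal and basal forebrain markers in the table were called higher, with a list mean of 0.55 ± 0.17 (SD, n = 4 pairs) and levels of 9.28 to 9.48 in eGFP and 9.81 to 10.01 in Rnf146 libraries.

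The 10 striatal markers averaged -0.11, 1.33, 0.71 and 0.28 in the 4 pairs, with levels of 10.06 to 10.77 in eGFP and 10.67 to 11.38 in Rnf146 libraries. The 10 oligodendrocyte markers averaged -0.11, 0.44, 0.86 and 0.53, with levels of 11.48 to 11.96 and 11.85 to 12.34. None of either list was called with the block, although 9 striatal and 10 oligodendrocyte markers had an unadjusted p below 0.05, beside 12.4% of all genes. Of the cells in which *Egfr* is known, the astrocyte list (10 genes, 1 called higher, *Slc4a4*) averaged 0.02 ± 0.05 and the list of oligodendrocyte precursors (10 genes, 0 called, 1 with an unadjusted p below 0.05) 0.10 ± 0.14 (SD, n = 4 pairs). The precursor list was uneven: *Sox10*, *Olig2* and *Olig1* were highest, at 0.24, 0.21 and 0.20. Its lowest genes, *Matn4*, *Pdgfra* and *Cspg4*, had means of -0.02, -0.0017 and 0.03. The 8 endothelial markers averaged 0.0052 with 0 called and 0 at an unadjusted p below 0.05, and the 8 microglial markers averaged -0.17 with 1 called lower, *C1qb*. In pairs 1 to 4 the microglial means were -0.18, -0.28, -0.09 and -0.14. The microglial list mean was thus lowest in pair 2 and nearest to 0 in pair 3, but its genes were uneven. *Cx3cr1* was lowest in pair 3, at -0.12, and *Csf1r* in pair 1, at -0.69. *Tmem119* was nearest to 0 in pair 4, at -0.09.

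**Figure D4:**
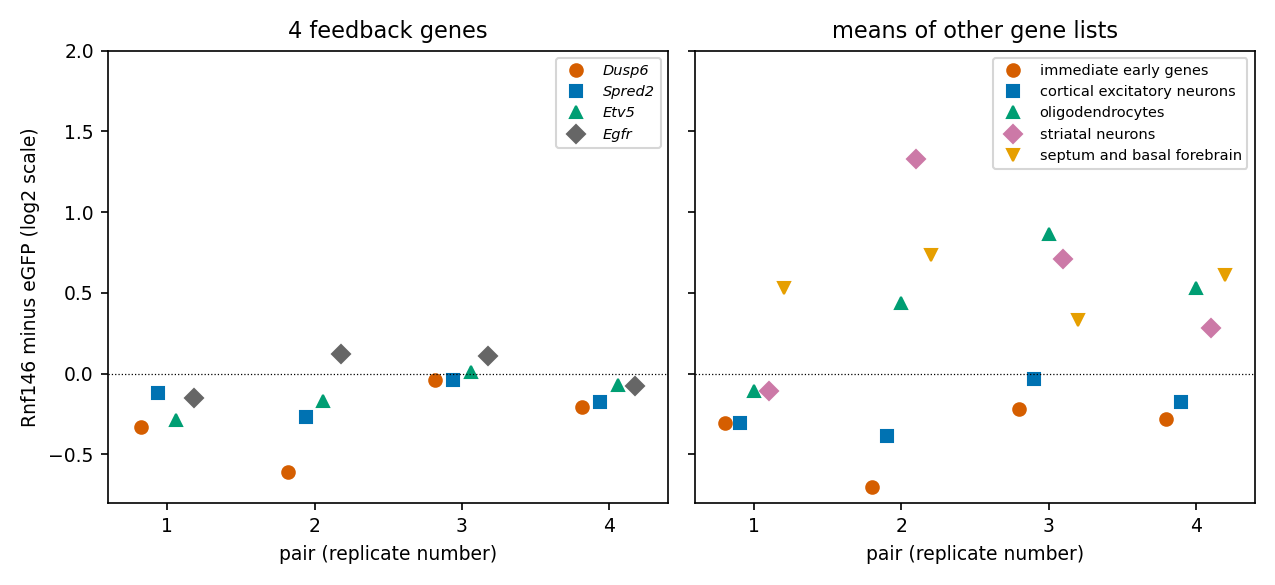
Differences between the Rnf146 and the eGFP library (y axis, log2 scale) in pairs 1 to 4 (x axis), on the left for *Dusp6*, *Spred2*, *Etv5* and *Egfr* and on the right for the means of the immediate early genes and of 4 marker lists. *Dusp6* and the immediate early genes are lowest in pair 2, at -0.61 and -0.70, where the striatal markers are highest, at 1.33. The cortical excitatory markers are also lowest in pair 2, at -0.39, and the septal markers highest, at 0.73. *Etv5* is lowest in pair 1, at -0.29, and the oligodendrocyte markers are highest in pair 3, at 0.86.

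The genes whose 4 pair differences were nearest to those of *Egfr*, by Euclidean distance over all 15039 genes, were *Mzt2*, *Spsb4* and *Pnpla6*, at distances of 0.024, 0.035 and 0.038 on the log2 scale. As many as 95 genes lay within a distance of 0.1, so with 4 pairs being nearest to *Egfr* does not mark these genes as related to it.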

How the data were processed

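PFC RNA was sequenced as 4 Rnf146 and 4 eGFP TruSeq stranded mRNA libraries. Groups and replicate numbers came from the sample labels. The authors used Cutadapt for trimming and Salmon 1.9.0 for quantification against GENCODE vM30 (GRCm39). The submitters' processing notes also name DESeq2. The deposited values are on a log2 scale (7.86 to 18.8) and are called normalized counts; the transformation is not given in the sources used here. The median SD of the pair differences was 0.094 to 0.102 in each of 4 equal bins of genes by mean value, as on a variance-stabilized scale, on which changes of weakly expressed genes are compressed. For every gene the sum of a pair's 2 values was equal across the pairs (largest spread 1.4e-13), so the replicate number was a block. The correlation of same-numbered libraries' deviations is thereby fixed by the centring. Depth is unknown and no count test was run.

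The model was limma 3.58.1 under R 4.3.3 (lmFit, eBayes with trend; 3 residual degrees of freedom with the block and 6 without) and Benjamini-Hochberg adjusted over 15039 genes. Intervals are 95% intervals from that fit. In 5 simulations of pair-centred values with 200 of 15039 genes shifted by 0.5, a mean of 174.6 shifted and 14.6 unshifted genes passed with the block, and 197.4 and 1054 without it. The simulated shift was larger than the difference of any member (the largest in size was -0.30, *Dusp6*), so these counts do not give the power for the members. Noise was drawn for each gene separately, so shifts shared by many genes within a pair were not simulated. Summaries used Python 3.11.15 with numpy 2.4.6 and pandas 2.3.3. Members and lists were chosen with earlier results of these data known. Named genes are all members, each pathway list's called genes and its highest and lowest gene, the calls of marker lists by count, and the 3 genes nearest to *Egfr*. Other genes (relatives of members, *Hbegf*, *Dusp1* and called markers) were named after their values were seen. The sources used here do not say whether each library is 1 mouse, so p-values measure the spread between these pairs. Coordinates are from GENCODE vM39 on GRCm39, the build of the authors' reference.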

Additional observations from a re-analysis of the deposited data

Results flagged for a closer look

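Among 24 items (the 10 feedback genes and the means of 14 gene lists), 2 had a pair that stood apart by Dixon's criterion for 4 values, which chance gives for about 1 group in 20. The mean of the 12 immediate early genes was -0.70 in pair 2, against -0.22 to -0.30 in the others. The mean of the 10 markers of oligodendrocyte precursors was -0.11 in pair 1, against 0.16 to 0.18 in the others. None of the 10 feedback genes had such a pair.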

How the results depend on the processing

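The 10 feedback genes gave 0 calls with median centring, quantile normalization, the lowest 25% of genes left out (which removes *Spry1*), untrended or robust variances, array weights and each pair left out. An adjusted p of 0.05 could call none of them, because their lowest adjusted p in the main limma fit was 0.202. Without the replicate block 3 were called, *Dusp6* (adjusted p = 0.031), *Spred2* (0.022) and *Etv5* (0.070, limma), and 3226 genes in the whole table. That fit also called 4 ErbB and FGF receptors, 3 ErbB ligands, 9 adaptor and cascade genes, 3 further feedback genes and 12 immediate early genes. The replicate block was kept because the centring leaves 4 independent differences per gene. Array weights called 355 genes in all, 1 cascade gene (*Gab1*) and 6 immediate early genes, and an adjusted p of 0.05 called 80 genes in all and 1 immediate early gene.

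Leaving out pairs singly, the whole table gave 14 to 421 calls, the immediate early genes 0 to 5, and the receptors, ligands and cascade 0 to 1 each. The difference of *Dusp6* ran from -0.38 to -0.19, that of *Spred2* from -0.19 to -0.11 and that of *Etv5* from -0.18 to -0.08. Larger relative moves, all without a change of sign, were those of *Spry4* (-0.11 to -0.0067, the latter without pair 2), *Etv4* (-0.17 to -0.03, the latter without pair 1), *Spred1* (-0.16 to -0.04, the latter without pair 4) and *Spry1* (0.03 without pair 3 to 0.08 without pair 4). The differences nearest to 0 changed sign, with *Egfr* running from -0.037 to 0.052, *Errfi1* from -0.032 to 0.021 and *Spry2* from -0.051 to 0.087. The median of the members stayed between -0.08 and -0.05. The cause of these changes was not tested.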
